A study of Mus musculus with 30 samples.

Results

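Acta2, Acta1, Actc1 and Actg2, the 4 muscle actin genes, were followed in differentiating mouse embryonic stem (ES) cells together with 6 genes whose products bind or move actin filaments in smooth muscle: Tagln, Cnn1, Cald1, Tpm1, Tpm2 and Myl9. The 10 genes were taken by gene symbol from the platform annotation. They are 10 of the 18194 genes on the array with a named probe set, and 22 of the 34958 probe sets that name 1 gene. Each gene is read from its brightest probe set unless stated otherwise.

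Cells labelled null for Jmj, the gene now called Jarid2, were compared with Jmj Fl/Fl cells, which carry floxed Jmj alleles and which the labels call wild type. Both were taken before and after withdrawal of LIF, a cytokine that keeps mouse ES cells undifferentiated, on days 0, 2, 4, 6 and 8. The arrays labelled null numbered 3 for day 0, 5 for each of days 2, 4 and 6, and 2 for day 8, against 2 Fl/Fl arrays at each of the 5 days. The labels call replicate arrays biological but do not say whether they came from separate cultures or clones, so p-values measure the spread between these arrays only. Values are linear probe set intensities, and differences are on the scale log2(intensity + 4).

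Muscle actins are the filament actins of contractile tissue. Acta2 is the actin of vascular smooth muscle, Actg2 that of visceral smooth muscle, Acta1 that of skeletal muscle and Actc1 that of the heart. Tropomyosins (Tpm1, Tpm2) lie along the filament, caldesmon (Cald1), calponin (Cnn1) and transgelin (Tagln, also called SM22) bind it, and Myl9 is a regulatory light chain of the myosin that pulls on it. Many of these genes are known targets of serum response factor (SRF), which binds a CArG box and works with myocardin-family cofactors. The same genes are also active in fibroblasts and the early heart, so their RNA alone does not name a cell type.

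Of 5 markers of mature smooth muscle looked at, 3 stayed near the floor of the arrays. Myh11, the smooth muscle myosin heavy chain that defines it, reached at most 16 on any array, Mylk at most 7 and Myocd, which encodes myocardin, at most 13. Lmod1, the smooth muscle leiomodin, reached 67 and had risen by day 8 by 1.81 in null (adjusted p 0.000649) and 2.22 in Fl/Fl (adjusted p 2e-04). Smtn, which encodes smoothelin, reached 516 and had risen by 1.58 in null (adjusted p 0.000198) and 1.10 in Fl/Fl (adjusted p 0.00948). With Myh11 near the floor, the 10 genes are called contractile genes here and given no cell type.

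Some facts about the arrays bear on the genotype comparison. None of the 3 Jarid2 probe sets was lower in the arrays labelled null. Averaged over days they were higher by 0.57 to 0.79 on the log2 scale, which goes against the label. The position of their targets relative to the deletion is not stated, so they may check nothing. The 20 arrays labelled null also fell into 3 sets by Eif2s3y, a Y-linked gene. It read 594 to 981 on 11 of them, 217 to 365 on 5 and 11 to 16 on 4, against 130 to 234 in Fl/Fl. The ratio of 3' to 5' actin control probe sets ran from 1.288 to 1.43, from 1.565 to 2.024 and from 1.545 to 1.676 in those sets, against 1.48 to 2.037 in Fl/Fl. Array means lay between 331.8 and 363.6. Whether the Eif2s3y sets are separate cell lines was not tested.

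Promoter windows of 8 of the 10 genes, 250 bases before to 50 after the start, were available from RefSeq on the GRCm38.p6 assembly. Tagln and Actg2 had none. The 4 windows below are those of the 3 genes with an exact CArG box, Acta1, Actc1 and Myl9, and that of Acta2, which has a pair of near matches. Tpm1 and Cald1 also hold near matches only, CCATATATAG and CCAAAAAAGT in Tpm1 and GCTTTTTAGG in Cald1, and their windows are not printed. A CArG box was searched as CC, then 6 bases each A or T, then GG, on both strands. Capitals mark such boxes in Acta1, Actc1 and Myl9, and in Acta2 the pair of stretches that differ from one at 1 base.
Acta2, chr19:34255324-34255623, minus strand: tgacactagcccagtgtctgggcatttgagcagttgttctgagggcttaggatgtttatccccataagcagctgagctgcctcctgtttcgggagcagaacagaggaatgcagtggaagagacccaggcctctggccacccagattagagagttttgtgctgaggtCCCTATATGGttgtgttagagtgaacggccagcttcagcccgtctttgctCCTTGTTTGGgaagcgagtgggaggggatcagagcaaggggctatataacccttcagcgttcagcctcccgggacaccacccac
Acta1, chr8:123894726-123895025, minus strand: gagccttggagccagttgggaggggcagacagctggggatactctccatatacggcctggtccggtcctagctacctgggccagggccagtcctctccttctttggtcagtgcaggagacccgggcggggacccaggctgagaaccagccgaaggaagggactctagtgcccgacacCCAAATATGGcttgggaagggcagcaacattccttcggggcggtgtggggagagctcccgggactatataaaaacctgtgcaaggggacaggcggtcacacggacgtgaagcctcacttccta
Actc1, chr2:114052826-114053125, minus strand: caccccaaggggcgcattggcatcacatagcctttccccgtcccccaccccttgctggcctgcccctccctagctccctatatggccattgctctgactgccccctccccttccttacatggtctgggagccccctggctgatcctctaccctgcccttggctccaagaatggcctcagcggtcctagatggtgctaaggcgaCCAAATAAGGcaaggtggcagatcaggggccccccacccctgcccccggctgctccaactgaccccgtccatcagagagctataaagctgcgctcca
Myl9, chr2:156775214-156775513, plus strand: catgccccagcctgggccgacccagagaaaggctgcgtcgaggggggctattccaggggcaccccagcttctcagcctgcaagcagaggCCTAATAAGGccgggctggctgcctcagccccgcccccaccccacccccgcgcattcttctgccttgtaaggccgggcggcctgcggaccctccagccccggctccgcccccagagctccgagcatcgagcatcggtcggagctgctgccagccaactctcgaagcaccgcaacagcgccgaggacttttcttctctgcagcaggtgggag
The box CCAAATATGG of Acta1 began 73 bases before the start, CCAAATAAGG of Actc1 47 bases before it and CCTAATAAGG of Myl9 161 bases before it. In Acta2, CCCTATATGG began 84 and CCTTGTTTGG 34 bases before the start. An exact box stood in the windows of 3 member genes, and 1.63% of 32851 RefSeq promoter windows held one. With up to 1 base off it was 6 member genes, against 21.1% of all windows. A match is a description of the letters and not a measured binding site. Distances are from the RefSeq start, and where transcription began in these cells was not tested. In the printed windows TATAAA began 7 bases before that start in Acta1 and at base 34 after it in Actc1.

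Acta2 rose in both genotypes. On the arrays labelled null it read 289, 115 and 15 on day 0, then 243, 204, 118, 46 and 53 on day 2, 623, 1252, 275, 328 and 118 on day 4, 2329, 6323, 4091, 3803 and 3521 on day 6, and 8842 and 26362 on day 8. In Fl/Fl cells it read 861 and 1935 on day 0, 1844 and 1483 on day 2, 4406 and 4196 on day 4, 15472 and 18817 on day 6, and 26783 and 28510 on day 8. At every day each array labelled null lay below both Fl/Fl arrays. By day 8 Acta2 had risen by 7.45 ± 0.94 on the log2 scale on the arrays labelled null (SE, adjusted p 2.61e-06, limma's moderated test with Benjamini-Hochberg adjustment over all 18194 genes) and by 4.42 ± 1.03 in Fl/Fl (adjusted p 0.00192). In bulk samples, fewer cells that make a transcript and less of it per cell cannot be told apart.

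Acta1 also rose in both genotypes. On the arrays labelled null it read 17, 75 and 16 on day 0, 18, 11, 92, 15 and 16 on day 2, 105, 273, 30, 58 and 27 on day 4, 1093, 2739, 1613, 1248 and 1199 on day 6, and 2782 and 6284 on day 8. In Fl/Fl it read 155 and 280, 204 and 173, 1929 and 1527, 5091 and 6786, and 3638 and 3905 over the same 5 days. The Fl/Fl arrays read highest on day 6, and a change between days 6 and 8 was not tested. On day 8, 1 of 2 arrays labelled null lay above both Fl/Fl arrays. The rise to day 8 was 7.03 ± 0.81 in null (SE, adjusted p 8.32e-07) and 4.15 ± 0.89 in Fl/Fl (adjusted p 0.000872).

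Actc1, the actin of the heart, started at the floor in both genotypes. It read 15, 16 and 11 on day 0 and 16, 16, 7, 14 and 12 on day 2 on the arrays labelled null, then 169, 375, 57, 66 and 48 on day 4, 521, 444, 434, 568 and 624 on day 6, and 436 and 777 on day 8. In Fl/Fl it read 13 and 11 on day 0, 54 and 47 on day 2, 687 and 569 on day 4, 739 and 1452 on day 6, and 1003 and 699 on day 8. The Fl/Fl arrays had left the floor by day 2, when no array labelled null had. On day 8 the groups overlapped.

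Actg2 stayed at the floor longest. On the arrays labelled null it read 7 on all 3 day 0 arrays, 6 or 7 on days 2 and 4, 6, 7, 11, 9 and 7 on day 6, and 7 and 137 on day 8. In Fl/Fl it read 6 or 7 through day 4, then 37 and 48 on day 6 and 224 and 132 on day 8. A single array labelled null carried its rise of 1.84 on those arrays on day 8 (adjusted p 0.012). Without that array, replicate 2, the change was 0 (adjusted p 1).

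**Figure D1:**
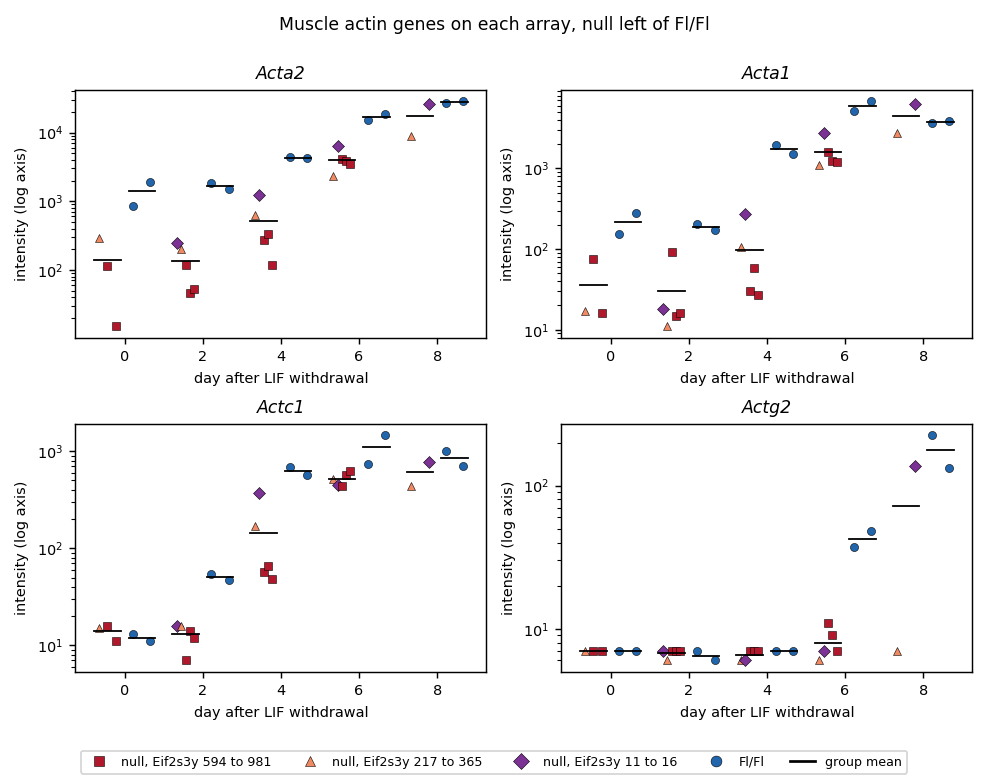
Intensity of Acta2, Acta1, Actc1 and Actg2 on each array (log axis) against day after LIF withdrawal, with arrays labelled null left of Fl/Fl at each day and a line at each group mean. Marker shapes give the 3 Eif2s3y sets. Acta2 lay lower on every array labelled null than on both Fl/Fl arrays at each day, and Actg2 left the floor on 1 array labelled null.

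Tagln, which encodes the actin-bundling protein transgelin, was already bright on day 0, at 625, 523 and 332 on the arrays labelled null against 1537 and 2874 in Fl/Fl. On day 2 it read 1272, 662, 978, 513 and 615 labelled null and 3547 and 3080 in Fl/Fl, on day 4 4798, 6302, 3646, 3087 and 2732 against 10657 and 10524, on day 6 7951, 10690, 11585, 10905 and 10796 against 14498 and 16953, and on day 8 11249 and 21614 against 22393 and 21852. The arrays labelled null lay below both Fl/Fl arrays at all 5 days.

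Cnn1, which encodes calponin, a filament protein that slows myosin, started dim in both genotypes. Labelled null, it read 27, 28 and 44 on day 0, 187, 114, 75, 74 and 46 on day 2, 728, 780, 415, 271 and 277 on day 4, 283, 349, 798, 847 and 787 on day 6, and 459 and 1181 on day 8. In Fl/Fl it read 28 and 81, 220 and 272, 592 and 599, 856 and 1319, and 1452 and 1431. On day 4, 2 of 5 arrays labelled null exceeded both Fl/Fl arrays, so these groups overlapped there.

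Tpm1, Tpm2 and Cald1 were higher on each day 8 array than on each day 0 array of the same genotype. Tpm1 ranged from 984 to 1297 on day 0 and 10166 to 19495 on day 8 on the arrays labelled null, against 2052 to 2762 and 19719 to 21624 in Fl/Fl. Tpm2 ranged from 229 to 277 and 1586 to 5826 labelled null, against 407 to 711 and 5282 to 5287. Cald1 ranged from 117 to 264 and 3244 to 8994 labelled null, against 432 to 503 and 7100 to 7205. On the day 8 arrays labelled null, replicate 2 lay above replicate 1 for all 10 genes.

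Myl9, the regulatory light chain, was dim throughout. Labelled null it read 30, 106 and 84 on day 0, 283, 168, 179, 158 and 128 on day 2, 332, 311, 312, 228 and 233 on day 4, 163, 114, 439, 477 and 474 on day 6, and 112 and 231 on day 8. In Fl/Fl it read 35 and 95, 294 and 288, 138 and 150, 136 and 220, and 320 and 361. All 5 arrays labelled null lay above both Fl/Fl arrays on day 4, and 3 of 5 did on day 6.

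**Figure D2:**
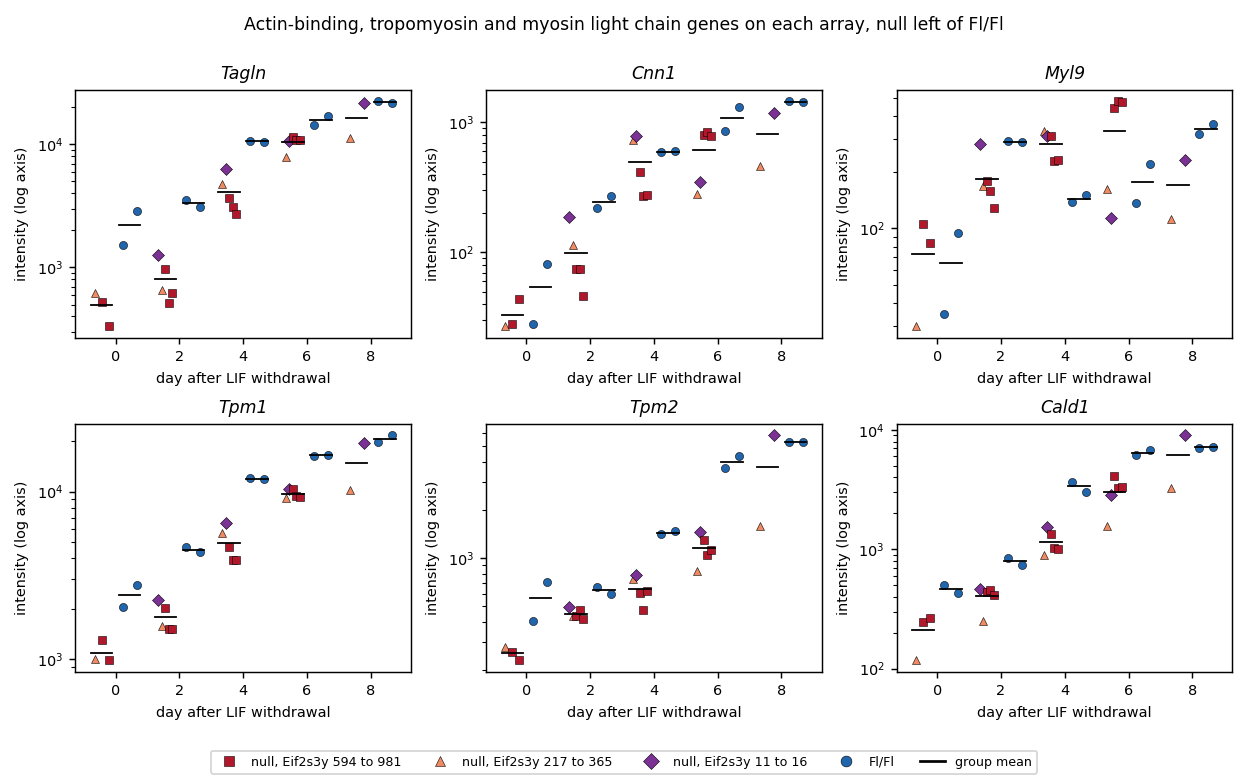
Intensity of Tagln, Cnn1, Myl9, Tpm1, Tpm2 and Cald1 on each array (log axis) against day after LIF withdrawal, with arrays labelled null left of Fl/Fl at each day and a line at each group mean. Marker shapes give the 3 Eif2s3y sets. Tagln and Tpm1 lay below Fl/Fl on all 20 arrays labelled null when each is set against its day's Fl/Fl mean, and Myl9 on 10.

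Over the 8 days nearly all contractile genes rose in both genotypes. From day 0 to day 8, 9 of the 10 rose on the arrays labelled null, where 14.9% of all genes rose. All 10 rose in Fl/Fl, where 15% of all genes did. The median change of the 10 was 4.55 in null, against -0.04 for all genes, and 3.96 in Fl/Fl, against -0.05. Acta2 and Acta1 changed by 7.45 and 7.03 in null, and Actc1 by 5.72 in Fl/Fl, from day 0 values that lay at the floor for Actc1 and for some null arrays of the others, so these changes have no exact fold. With only the arrays of the groups compared in the fit, 5 members were called in null and 9 in Fl/Fl. Of all genes, 5.25% and 21.8% were then called in either direction, against 33.4% and 33.6% in the fit of all arrays. Myl9 was the exception in null, at 1.26 with an adjusted p of 0.0966. It rose in Fl/Fl by 2.47 (adjusted p 0.00357), which without Fl/Fl day 0 replicate 1 missed the threshold (adjusted p 0.0791).

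The day at which the rise could be seen differed by gene. On day 2, Tpm1 alone had risen on the arrays labelled null, by 0.69 (adjusted p 0.0323), where 2.4% of all genes rose. No member had in Fl/Fl by limma's test, where 1.24% of all genes had, though 4 passed an unadjusted p under 0.05. On day 4, 7 members had risen in each genotype, against 6.36% of all genes labelled null and 8.01% in Fl/Fl. Tagln, Tpm1, Cald1, Cnn1, Actc1 and Tpm2 were among the 7 in both. Myl9 made up the null 7 at 2.04, and Acta1 the Fl/Fl 7 at 3.02. Acta2 had not passed on day 4 in either genotype, at 2.16 in null (adjusted p 0.0601) and 1.73 in Fl/Fl (adjusted p 0.283). On day 6, 9 had risen in null, against 12.2% of all genes, and 9 in Fl/Fl, against 13.4%. The exceptions were Actg2 in null at 0.11 (adjusted p 1) and Myl9 in Fl/Fl at 1.51 (adjusted p 0.0682). Without Fl/Fl day 0 replicate 1 the Fl/Fl calls of Acta1 and Tpm2 on day 4 (adjusted p 0.14 and 0.156) and of Acta2 on day 6 (adjusted p 0.0816) were lost, and that of Tpm1 in null on day 2 was lost without null day 0 replicate 1 (adjusted p 0.12), null day 0 replicate 3, null day 2 replicate 1 or null day 2 replicate 3. Without Fl/Fl day 0 replicate 2 the Fl/Fl count on day 2 was 3. Leaving out 1 array at a time gave 366 to 842 calls over all genes in that comparison, against 574.

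**Figure D3:**
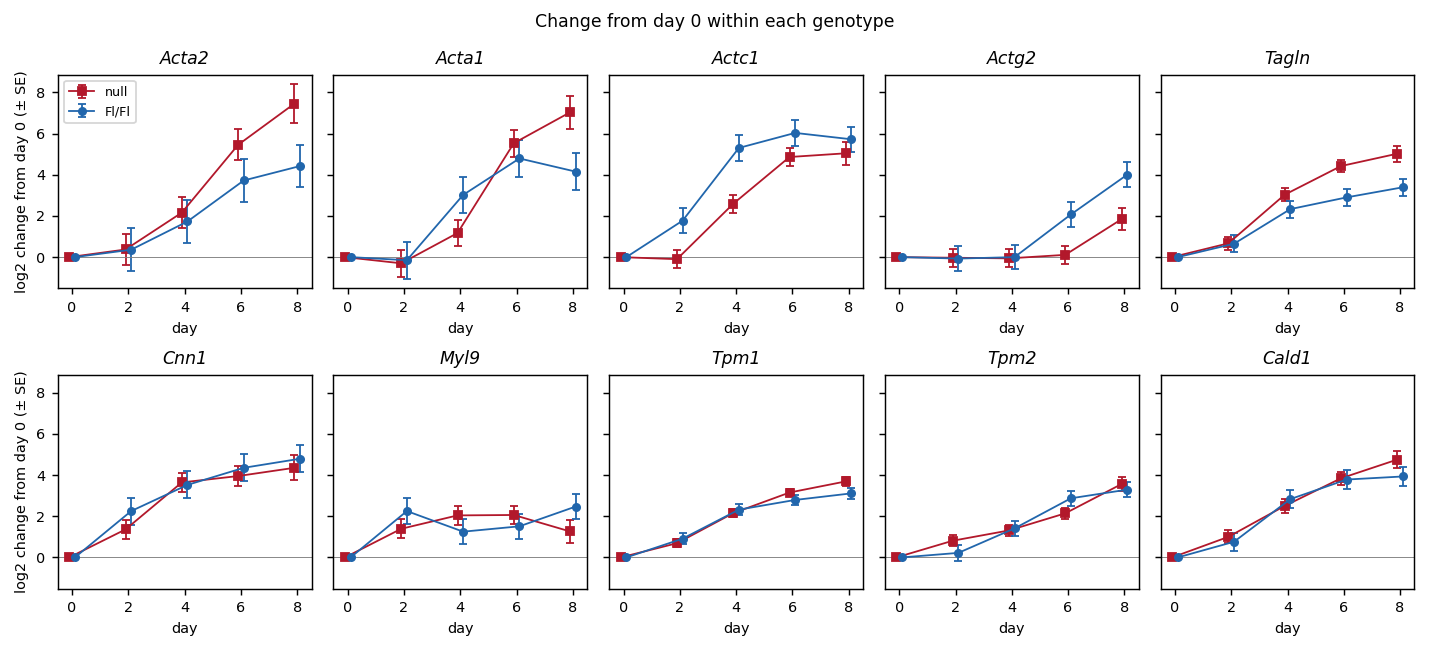
Change from day 0 on the log2 scale (± SE from the fit) against day, for each of the 10 genes, in cells labelled null (squares) and Fl/Fl (circles). Acta2, Acta1 and Actc1 reached changes of 4 or more in both genotypes by day 8, and Myl9 stayed below 3.

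The day 8 rises were larger in null than in Fl/Fl for Acta2 and Acta1, with differences of 3.04 ± 1.40 and 2.87 ± 1.20 (SE), and smaller for Actg2 at -2.16 ± 0.81. The test of the difference found 0 of 10 members (4 at an unadjusted p under 0.05), with 1.09% of all genes called. The null rise spans unlike Eif2s3y sets, with no high array on day 8 and none at the floor on day 0. With only null arrays under 450, which leave 1 on day 0, the null rise of Acta2 was 5.70. The differences were then 1.29 for Acta2, 3.49 for Acta1 and -2.16 for Actg2. The genotype-by-day F test also called 0 members, with 4 at an unadjusted p under 0.05 and adjusted p from 0.123 to 1, against 4.94% of all genes called. Without null day 8 replicate 1 the F test called 3 members, and without null day 8 replicate 2 or null day 4 replicate 2 it called 2. Without null day 8 replicate 2 the test of the difference called 1. Calls over all genes rose as well. The F test called 1931 without null day 8 replicate 1 and 2005 without replicate 2, against 899. The test of the difference called 1281 without null day 8 replicate 2, against 199. Read from the brightest probe set of each gene, the courses of the members were thus not shown to differ between genotypes. Tested by probe set, 1 of the 22 member probe sets was called for a larger day 8 rise in null. The share of all probe sets called in that test was not counted.

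Averaged over the 5 days, 9 of the 10 contractile genes were lower in the cells labelled null, where 15.5% of all genes were lower. The median difference of the 10 was -1.07, against 0 for all genes. Acta2 was lower by 2.85 ± 0.41 (SE, 7.22-fold, adjusted p 4.49e-05) and Acta1 by 2.40 ± 0.35 (5.29-fold, adjusted p 5.6e-05). Tagln was lower by 1.36 ± 0.17 (adjusted p 8.06e-06) and Tpm1 by 1.02 ± 0.10 (adjusted p 6.83e-07), both below the Fl/Fl mean of the same day on 20 of 20 arrays. Actc1, Cald1, Tpm2, Cnn1 and Actg2 were lower by 0.83 to 1.12. The Actg2 difference of -0.83 came from days 6 and 8, and it was -0.46 without null day 8 replicate 1 (adjusted p 0.000173). Myl9 did not differ detectably, at 0.01 ± 0.25 (adjusted p 1). Cnn1 missed the threshold without null day 8 replicate 1 (adjusted p 0.0695). Of all genes called in this average, 33.4% were higher, and 54.3% after quantile scaling and 75.4% after centring each array on its 75th percentile, while 9 members were called lower under both.

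**Figure D4:**
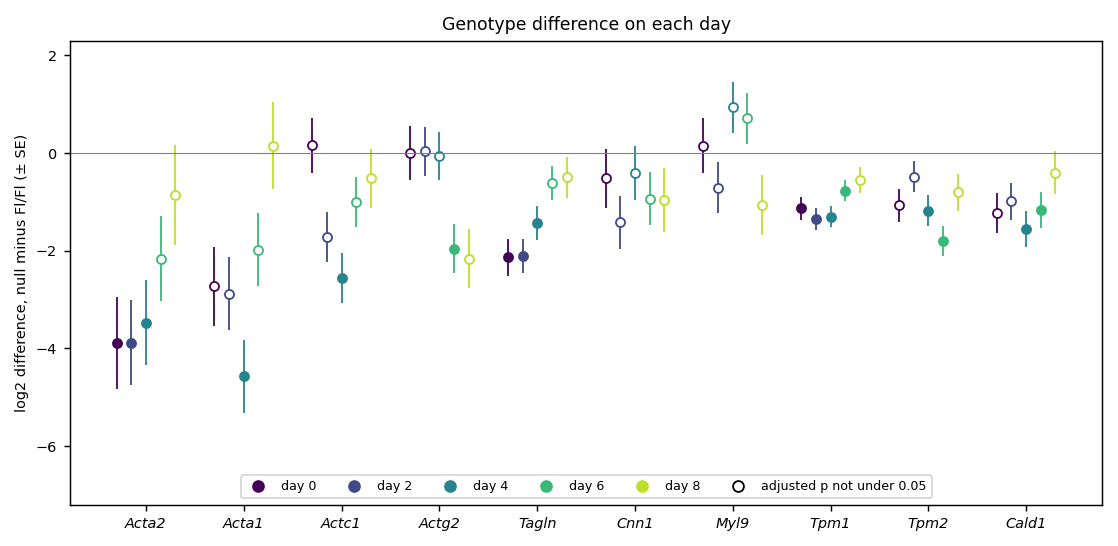
Difference of null minus Fl/Fl on the log2 scale (± SE) for each of the 10 genes on each day, filled where the adjusted p was under 0.05. Acta1 on day 4 lay lowest, at -4.57, and no point of day 8 is filled.

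The daily comparisons rest on fewer arrays each. With only the arrays of the day compared in the fit, 0 members were called on day 0 and 0 on day 2. Of all genes, 0.676% and 0.649% were then called in either direction. On day 0, Acta2 (-3.89, adjusted p 0.0447), Tagln (-2.13, adjusted p 0.0057) and Tpm1 (-1.13, adjusted p 0.0181) were lower labelled null, while 0.929% of all genes were lower. Without Fl/Fl day 0 replicate 2 the count was 0, and without null day 0 replicate 3 it was 1. Over all genes 492 and 103 were then called in either direction, against 214. On day 2 the same 3 genes were lower (Acta2 -3.88, adjusted p 0.0385), while 0.517% of all genes were. Leaving out Fl/Fl day 2 replicate 1 left 1 of them, and leaving out null day 4 replicate 2 gave 5. On day 4, 7 were lower, against 7.43% of all genes. Acta1 was lower by 4.57 ± 0.74 (23.8-fold, adjusted p 0.000307), Acta2 by 3.47 ± 0.86 (adjusted p 0.0107) and Actc1 by 2.55 ± 0.51 (adjusted p 0.00209), followed by Cald1, Tagln, Tpm1 and Tpm2. Leaving out Fl/Fl day 4 replicate 1 left 3 calls and replicate 2 left 4. Over all genes 895 and 1038 were then called in either direction, against 2112. On day 6, Tpm2 (-1.80, adjusted p 0.000724), Actg2, Cald1 and Tpm1 were lower, against 6.46% of all genes. Without either Fl/Fl day 6 array 1 call was left. Over all genes 813 were then called without replicate 1 and 546 without replicate 2, in either direction, against 1806. On day 8, 0 members were called by limma's test, with 3 at an unadjusted p under 0.05, against 1.8% of all genes called lower. Without null day 8 replicate 2, 3 were called, and the calls over all genes in either direction then rose from 457 to 2504.

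Counting members whose arrays do not overlap gave more members than limma's test on each day except day 4. Each array labelled null lay below both Fl/Fl arrays for 6 members on day 0, 9 on day 2, 7 on day 4, 9 on day 6 and 5 on day 8. Among all genes the corresponding shares were 9.9%, 8.39%, 14.3%, 14.7% and 16.8%.

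Acta2, Tagln and Tpm1 were lower than the Fl/Fl mean of their day on all 11 arrays with high Eif2s3y, all 5 with middle levels and all 4 at the floor. The sets are spread unevenly over days, with no high array on day 8 and none at the floor on day 0, so differences are given within a day. On day 4, Acta2 lay at -5.14 to -3.70 on the 3 high arrays, -2.78 on the middle one and -1.78 on the floor one. On day 6 it lay at -2.28 to -2.06, -2.87 and -1.43, in another order. Cald1 on day 6 lay at -0.99 to -0.65 on the high arrays, -2.05 on the middle one and -1.18 on the floor one. With only the high arrays kept at each day, 6, 7, 7 and 8 members were called on days 0, 2, 4 and 6, where 14.3%, 10.5%, 24.5% and 23.1% of all genes were called in either direction. With only the arrays under 450, 1, 0, 1, 0 and 0 members were called on days 0 to 8, where 2%, 0.291%, 5.08%, 1.69% and 1.48% of all genes were, and 7 in the average, where 10.9% were. Of the 8 calls on day 6 with high arrays, that of Myl9 was higher in null, by 1.40 (adjusted p 0.00473). On day 6, Cnn1 read 283 and 349 and Myl9 163 and 114 on the arrays at middle and floor levels, and 787 to 847 and 439 to 477 on the high arrays. The sets were drawn after their values were seen, they are not groups of the study, and a difference between them was not tested.

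**Figure D5:**
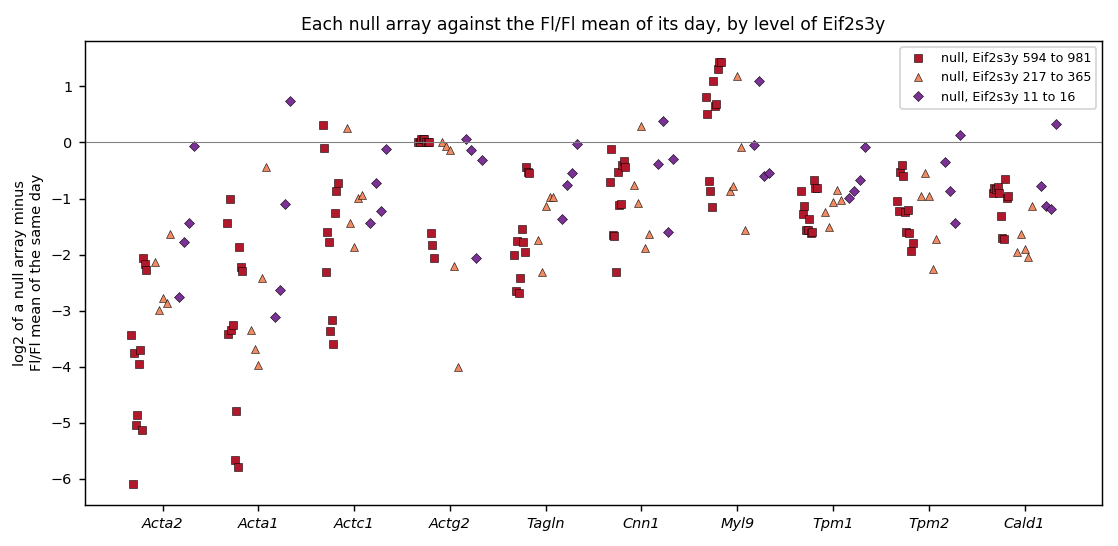
Log2 of each array labelled null minus the Fl/Fl mean of the same day for each of the 10 genes, with marker shapes for the 3 Eif2s3y sets. Acta2, Tagln and Tpm1 lay below 0 on all 20 arrays, and Myl9 on 10.

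The probe sets of a gene agreed in direction where they were bright. Of the 22 member probe sets, 19 reached 100 on some array. Averaged over days 17 were lower labelled null and 0 higher, against 12.7% of all probe sets lower. By day 8, 18 had risen in null and 21 in Fl/Fl, against 12.5% and 13.4% of all probe sets. The other Acta2 probe sets lay near the floor on most arrays, with average differences of -0.48 and -0.11, neither called. The 3 Tpm1 probe sets that reached 100 were lower by 1.02 to 1.44. Of the 4 Cald1 probe sets that did, the 3 brightest were lower by 1.07 to 1.32, and the other read 222 at most. The muscle actin proteins are nearly identical, but how alike the transcripts are at these probes was not tested. The suffix of the bright Acta2 probe set marks probes shared by several transcripts. The share of each actin in its signal is thus uncertain.

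Other genes of the contractile and actin machinery were taken from a list of 28 genes, of which 27 were measured. Averaged over days, 18 were lower labelled null and 0 higher, with a median of -0.62 against 0 for all genes, of which 15.5% were lower. By day 8, 20 had risen in null and 18 in Fl/Fl, where 14.9% and 15% of all genes had. These shares of all genes apply to the lists that follow too. Csrp1, a LIM protein of smooth muscle, was lower by 1.31 (adjusted p 7.86e-06), and Fhl2, a LIM cofactor, by 1.76 (adjusted p 3.65e-06). Tagln2 and Tpm4, which are not confined to muscle, were lower by 0.80 and 0.72. On day 8, Tgfb1i1 (Hic-5, a focal adhesion LIM protein) had risen by 5.62 in null and 5.06 in Fl/Fl, and Vcl (vinculin), Zyx (zyxin) and Tpm4 had risen in both by 2.33 or more. Of the 27 genes, 7 stayed under 50 on all arrays.

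The cytoplasmic actins moved little beside these. Actb differed by 0.04 (adjusted p 0.846) and Actg1 by -0.11 (adjusted p 0.0483) between genotypes on average. By day 8 Actg1 had risen by 0.56 in null and 0.60 in Fl/Fl. Of the 10 genes listed with SRF and its cofactors, 5 were lower labelled null and 0 higher on average (median -0.42). By day 8, 5 had risen and 1 fallen in null, and 7 had risen and 1 fallen in Fl/Fl. Klf4 was among the 5 lower on average, at -1.23 (adjusted p 0.000569). It was also the 1 that fell, with changes of -4.26 in null and -2.36 in Fl/Fl. Elk3, a ternary complex factor that partners SRF, was lower by 2.04 (adjusted p 1.23e-06), and Mrtfb, a myocardin-family cofactor, by 0.73 (adjusted p 0.00373). Mrtfa and Myocd, of the same family, were not called, at -0.06 (adjusted p 0.811) and -0.12 (adjusted p 0.0828). The list was not split by whether a gene raises or lowers the targets of SRF. Srf itself had risen by day 8 by 1.15 in null (adjusted p 0.00195) and 1.48 in Fl/Fl (adjusted p 0.000417). Its average difference between genotypes was -0.35 (adjusted p 0.0349). Of 16 genes of the TGF-beta pathway, which is known to drive Acta2 in fibroblasts, 9 were lower and 1 higher on average (median -0.66), with Tgfb2 lower by 2.28 (adjusted p 1.42e-06). By day 8, 10 had risen and 1 fallen in null, and 14 had risen and 1 fallen in Fl/Fl.

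Markers of some other cell types also differed between genotypes. Of 17 fibroblast and feeder markers, 10 were lower labelled null on average and 0 higher (median -0.88). Their summed level on day 6 was 18367 to 23827 labelled null against 41415 to 43836 in Fl/Fl. Vim and Fn1 made up most of it, so the sum says little of the dimmer markers. Their day 6 means were 11470 and 9384 labelled null and 23060 and 16440 in Fl/Fl. Col1a1 had day 6 means of 55.8 and 1588. On day 8 the sums overlapped, at 27159 to 51431 against 50238 to 51391. The median difference of these markers on day 8 was still -1.52. By limma's test 6 were lower that day and 0 higher, where 1.8% of all genes were lower. Of 10 simple epithelium markers, 7 were lower and 1 higher (Epcam, by 0.73), with a median of -1.87, and the sum on day 6 was 34789 to 58664 against 76168 to 84638. On day 8 it was 50523 to 83711 against 67002 to 68173, with a median difference of 0.09. Of 10 pluripotent markers, 5 were higher and 2 lower (median 0.62), and the sum on day 6 was 14364 to 21791 against 4417 to 4852. On day 8 it was 1632 to 10760 against 2479 to 5578, with a median difference of -0.39. Tdgf1 was the largest part of the pluripotent sum on day 6, with means of 11300 labelled null and 2845 in Fl/Fl. For 18 cardiac markers, 4 were lower and 1 higher (median -0.03), with 11 of them under 50 on all arrays. For 17 skeletal markers 1 was lower and 0 higher, with 15 under 50. Of 8 endothelial markers 1 was lower, and of 12 of extraembryonic endoderm 3 were lower, with 0 higher in both lists. The part of these markers' cells in the members' differences was not tested.

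The course of Acta2 over the 10 groups was closest to that of Phc2, a Polycomb group gene (r = 0.994 across group means on the log2 scale), among 7859 genes reaching a group mean of 100. Bcl2l1, Krt18, Pdlim2, Ctnnd1, Anxa5, Col4a2 and Nuak1 followed, at 0.980 to 0.989. The groups share a day order and arrays, so these values describe likeness only. Among the members, Acta1 stood closest at 0.976, Tagln at 0.954, Tpm2 at 0.944, Tpm1 at 0.940 and Cald1 at 0.932, while Myl9 stood at 0.389. Tpm1 and Cald1 correlated with each other at 0.993.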

How the data were processed

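RNA of 30 samples was measured on Affymetrix arrays. The authors deposited 1 table of whole-number, linear probe set intensity. How they normalized, corrected for background and summarized probes is not stated. Per the labels' protocols, cRNA was made from total RNA by the standard protocol of the manufacturer.

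Gene names came from the platform annotation: 34958 probe sets named 1 gene, 932 named several and 9211 none. Values were transformed to log2(intensity + 4), and no gene was removed for low signal. With limma 3.58.1 (R 4.3.3), a mean for each group was fitted to the 30 arrays together (20 residual degrees of freedom, 20.6 after moderation), with two-sided moderated tests and Benjamini-Hochberg adjustment over 18194 genes at a threshold of 0.05. Fold changes understate genes near the floor. The number of arrays limits the precision. The fit was tested on simulated data.

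Named genes followed a rule: the 10 members with every probe set, up to 4 genes of each of 11 lists with the smallest adjusted p, and the 8 genes most like Acta2. Myh11, Mylk, Smtn and Lmod1 fell outside it and were named after their values were seen, to check the smooth muscle label. The members and lists were chosen with earlier results of these data known. Replicate numbers were not taken to pair the genotypes. Deviations of same-numbered null and Fl/Fl arrays of a day correlated between -0.199 and 0.259 over 10 pairs. With 2 Fl/Fl arrays a day their deviations mirror each other, so these pairs are not independent. Pairing across days within null was not checked. On days 2, 4 and 6, null replicates 3, 4 and 5 were the arrays with high Eif2s3y. The alternatives were other pseudocounts, scalings, a filter on dim genes, all probe sets of a gene averaged, the replicate block, only the arrays compared, the Eif2s3y sets and leaving out each array.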

Additional observations from a re-analysis of the deposited data

Results flagged for a closer look

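Of 30 tests of a group of 5 arrays for a lone array far from the rest, 4 stood out, and chance gives about 1 in 20. Acta1 read 92 on null day 2 replicate 3, against 11 to 18 on the others of its group. Cald1 read 253 on null day 2 replicate 2, below the other 4 arrays at 418 to 461. Tagln read 7951 on null day 6 replicate 1, below the others at 10690 to 11585. Actg2 read 6 on null day 2 replicate 2, where the others read 7, a step of 1 unit at the floor.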

How the results depend on the processing

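Over the 10 members, counts called under other settings were these. At day 8 between genotypes, 1 was called with a pseudocount of 16 and 1 with the dimmest 40% of genes left out, against 0. At day 2 in Fl/Fl, 2 were called after quantile scaling, 3 after centring, 3 with that filter and 1 with the replicate block, against 0. At day 2 in null, 2 were called after centring, 3 with the filter, 3 with only high Eif2s3y arrays and 2 with the Eif2s3y set as a covariate, against 1. With only the arrays of the groups compared, 0 were called at day 0, 0 at day 2, 5 for null at day 8 and 3 for Fl/Fl at day 4. With only high Eif2s3y arrays 6, 7 and 8 were called at days 0, 2 and 6, and with only arrays under 450, 1, 0, 1 and 0 at days 0, 2, 4 and 6. The rise of Actg2 in null at day 8 became 0 without null day 8 replicate 2 and ranged up to 3.68 over the arrays left out. Leaving out 1 array at a time gave 0 to 4 calls at day 0, 1 to 5 at day 2, 3 to 7 at day 4, 1 to 4 at day 6, 0 to 3 at day 8 and 8 to 9 in the average. For the courses it gave 0 to 3, 7 to 8, 9 to 9 and 8 to 9 in null and 0 to 3, 5 to 7, 7 to 10 and 9 to 10 in Fl/Fl at days 2, 4, 6 and 8. For the difference of day 8 changes it gave 0 to 1 and for the F test 0 to 3. The cause of these moves was not tested, beyond the smaller number of arrays or genes that a setting leaves.

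Counts over all genes moved by more than 1.5 times under these settings. Centring gave 97 at day 0 (214 in the fit reported) and 8187 in the average (4224). The filter gave 113 at day 0, 299 at day 8 (457) and 92 for the difference of day 8 changes (199). The replicate block gave 61 at day 2 (113). With only the arrays compared, 123 were called at day 0, 110 for the difference, and 643, 1324 and 955 for null at days 2, 4 and 8 (985, 2675 and 6069), and 3, 1766 and 3960 for Fl/Fl (574, 3373 and 6113). High arrays alone gave 2601, 1902, 4457 and 4197 at days 0 to 6, and arrays under 450 gave 364, 53, 925, 308 and 270 at days 0 to 8, 1990 in the average, 385 for the difference and 563 for the F test (899). The covariate gave 1570 for null at day 2. Leaving out 1 array at a time moved the counts over all genes, and so the shares printed beside the members, to 103 to 669 at day 0 (lowest without null day 0 replicate 3, highest without null day 0 replicate 1), 66 to 244 at day 2 (null day 2 replicate 4, Fl/Fl day 2 replicate 2), 895 to 2654 at day 4 (lowest without Fl/Fl day 4 replicate 1), 546 to 2484 at day 6 (lowest without Fl/Fl day 6 replicate 2), 280 to 2504 at day 8 (Fl/Fl day 8 replicate 2, null day 8 replicate 2), 162 to 1281 for the difference and 691 to 2005 for the F test (both highest without null day 8 replicate 2). High arrays could not be used alone at day 8, in the average, for the difference of day 8 changes or for the F test, since day 8 had none, and the covariate was run within the null course only. The share of higher calls over all genes moved by over 10 points at day 0 after quantile scaling (36.2%, 21% before), at day 2 after centring (27.2%, 16.8%), at day 4 (48.5% and 55.8%, 36%), at day 6 (48.3% and 49.8%, 34.9%) and at day 8 after quantile scaling (40.8%, 28.2%) and centring (38.2%). Centring moved the median of all genes by up to 0.15, at day 4.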

Other observations

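Mylpf, a regulatory light chain of fast skeletal muscle myosin and a gene of the skeletal marker list, ran against the contractile genes. It read 1280, 546 and 850 on the arrays labelled null at day 0 and 14 and 12 at day 8, against 1355 and 1659 and 122 and 38 in Fl/Fl. It fell by 5.64 in null (adjusted p 6.65e-08) and 4.37 in Fl/Fl (adjusted p 5.82e-06). Ttn, which encodes titin, read 35, 54 and 68 at day 0 and 19 and 14 at day 8 labelled null, against 40 and 128 and 13 and 14 in Fl/Fl. It was the 1 of 18 cardiac markers that had fallen by day 8 in each genotype. Of the same markers, 5 had risen in null and 4 in Fl/Fl. Tnnc1 was among them, with rises of 1.96 in null and 1.82 in Fl/Fl.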
